A study of Homo sapiens with 6 samples.

Results

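The ERBB family comprises EGFR, ERBB2, ERBB3 and ERBB4, and 6 of its EGF-family ligands, AREG, EREG, HBEGF, TGFA, BTC and NRG1, were examined with it. These 10 genes were taken by symbol from the 59653 genes of the count table. RNA came from the ovarian cancer line SK-OV3, labelled as wild type and transfected for 48 h with 50 nM of siPVT1, a pool of siRNAs against the lncRNA PVT1, or of siControl, a non-targeting pool. Both groups were grown in full serum medium and transfected with the same lipid reagent, and each had 3 libraries. The labels name 1 cell line and 1 siRNA pool per group and do not say that replicates came from separate cultures, so that p-values measure the spread between these libraries only.

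ERBB receptors are receptor tyrosine kinases that pair on ligand binding and signal through the RAS-ERK and PI3K-AKT cascades. EGFR binds AREG, EREG, HBEGF, TGFA, BTC, EGF and EPGN, and ERBB3 and ERBB4 bind the neuregulins. ERBB2 has no known ligand and acts as the partner of the other receptors, and ERBB3 has little kinase activity of its own. The ligands are made as membrane proteins and are released by ADAM proteases.

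Total counts ranged from 28383171 to 35059576 per library. Normalized counts (counts scaled by library size with TMM factors) of the targeted PVT1 were 3298, 4090 and 3377 in siControl and 2350, 2111 and 2062 in siPVT1. The siPVT1 libraries all lay below the siControl libraries for PVT1, with a log2 fold change of −0.72 (standard error 0.097, edgeR quasi-likelihood test, adjusted p = 0.000342). The siPVT1 libraries differed more among themselves (pairwise chi-square over genes, divided by its degrees of freedom, of 8.62 to 45.3) than the siControl libraries did (1.75 to 5.67), and siPVT1 replicate 3 was the farthest from the other two.

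The level of ERBB2 was looked at first, because SK-OV3 is known as a line with amplified ERBB2. ERBB2 RNA was not high in these libraries, and DNA copy number was not measured. ERBB2 had 1391, 1178 and 1333 counts in siControl and 805, 849 and 1024 in siPVT1. In TPM (counts per base of the canonical transcript, scaled to the same total in every library), its level was 23.2 ± 0.696 in siControl and 15.0 ± 0.288 in siPVT1 (SD over 3 libraries). In siControl this placed ERBB2 at rank 6031 of 19129 protein coding genes, with 31.5% of them higher. GRB7, an adaptor gene that lies close to ERBB2, beyond MIEN1, and is usually amplified with ERBB2, had between 1 and 8 counts in every library. The libraries are therefore called by their labels below, and whether they come from SK-OV3 was not tested.

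Markers were mixed. Of 6 epithelial markers, KRT7, KRT8 and KRT18 were abundant (4857 to 11377 normalized counts). By the adjusted p, KRT8 and KRT18 were higher and KRT7 was lower in siPVT1, each by less than 2-fold. KRT19 was higher past both thresholds, from 256 ± 18.5 to 1261 ± 448.5 normalized counts (SD, n = 3 each). CDH1, the epithelial cadherin, had 0 to 47.0 and EPCAM 41.3 to 127 normalized counts, and neither passed the test. PAX8, a factor of Müllerian epithelium, was present in all libraries with 2606 to 5855 normalized counts, and made up most of the sum of the 4 ovarian epithelium markers, which was 3298 to 3696 in siControl and 5087 to 6517 in siPVT1. Within that list MSLN was higher past both thresholds, WT1 was lower (366 ± 24.8 to 180.4 ± 43.4 normalized counts, SD, n = 3 each) and MUC16 did not pass the test. Of 4 endothelial markers, CLDN5 was at 0 in every library and CDH5, PECAM1 and VWF were all higher in siPVT1, and the list summed to 2046 to 2072 normalized counts in siControl and 8608 to 10883 in siPVT1. Of 5 fibroblast markers, COL1A1 and PDGFRB were higher in siPVT1, and DCN and COL1A2 had at most 4 counts. LUM went the other way, from 15.9 ± 7.64 to 7.23 ± 5.09 normalized counts (SD, n = 3 each), and did not pass the test. The sum of this list was 212 to 220.2 in siControl and 799 to 838 in siPVT1. Of 5 leukocyte markers, CD3E was at 0 in every library and PTPRC had at most 2 counts, and the sum was 12.9 to 257 in siControl and 15.0 to 88.5 in siPVT1. The part of other cells in the results below was not tested, and in bulk RNA fewer cells of a type and less RNA per cell cannot be told apart.

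Members changed in both directions. TGFA rose, EREG and BTC fell, HBEGF rose and ERBB2 fell by less than 2-fold, and the other 5 did not pass the test. All 10 members met the minimum of 5 normalized counts in 3 libraries. A gene was called differentially expressed at a Benjamini-Hochberg adjusted p under 0.05 and a change of 1 or more in either direction on the log2 scale, and 3 of the 10 members were (1 higher, 2 lower), against 21.5% of the 19008 genes tested (11.8% higher and 9.64% lower). Of all genes called, 55.1% were higher, or 43.8% with scaling by total count, which left the 3 members as 1 higher and 2 lower. On the adjusted p alone 5 of 10 members passed, against 57.9% of all genes (29.5% higher and 28.4% lower), and in 5 of 10 the 2 groups did not overlap, against 65.6% of all genes. These shares do not set the family apart from other genes. The median log2 fold change was −0.02 over the 10 members and 0.00 over all genes.

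**Figure D1:**
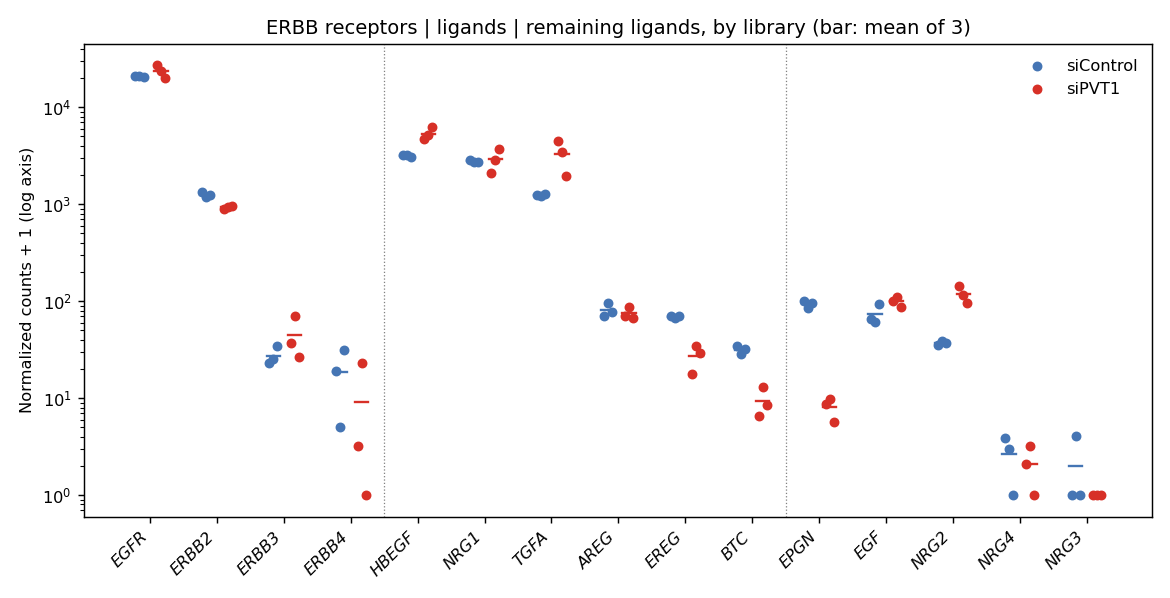
Normalized counts plus 1 of each receptor, ligand and remaining ligand on a log axis, with 1 point per library, siControl in blue, siPVT1 in red, and a bar for the mean of 3 libraries. EGFR lies highest, with 19979 to 26987 normalized counts, and the groups separate for ERBB2, HBEGF, TGFA, EREG, BTC, EPGN and NRG2.

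EGFR (chr7:55019017-55211628, GRCh38, plus strand), the receptor of EGF and most of the ligands examined here, was the most abundant member. Its normalized counts were 20891, 20897 and 20463 in siControl and 26987, 23696 and 19979 in siPVT1. The siPVT1 libraries spread around the siControl libraries, 2 above and 1 below, and the groups overlapped. The log2 fold change was 0.18 (95% interval −0.05 to 0.42, edgeR quasi-likelihood test, adjusted p = 0.156). Without siPVT1 replicate 3 it was 0.27 with an adjusted p of 0.00282 from edgeR. Without siPVT1 replicate 1 it was 0.06 (edgeR, adjusted p = 0.547), and it did not pass in any other fit without 1 library. Per length EGFR stood at 178 ± 7.92 TPM in siControl and 176 ± 29.4 TPM in siPVT1 (SD over 3 libraries), at ranks 824 and 773 among coding genes.

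ERBB2 (chr17:39687914-39730426, GRCh38, plus strand), the receptor without a ligand, had normalized counts of 1325, 1190 and 1231 in siControl and 896, 928 and 962 in siPVT1. Every siPVT1 library lay below every siControl library, and the 3 siPVT1 libraries were close together. The mean fell from 1249 ± 68.9 to 929 ± 32.9 (SD, n = 3 per group), with −0.43 as the log2 fold change (standard error 0.070, edgeR quasi-likelihood test, adjusted p = 0.00106), and an exact permutation test (two-sided) gave p = 0.1, below which 3 libraries against 3 cannot go. When single libraries were dropped the value stayed between −0.47 and −0.39.

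EGFR therefore exceeded ERBB2 in every library. By TPM the ratio of EGFR to ERBB2 was 7.26 to 8.08 in siControl and 9.55 to 13.9 in siPVT1, and by raw counts it was 15.8 to 17.6 and 20.8 to 30.1. The 2 groups did not overlap in this ratio (exact permutation test, two-sided, p = 0.1, again the lowest value possible). With exon union lengths in place of the canonical transcript the ratio was 10.2 to 11.4 and 13.4 to 19.5.

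ERBB3 (chr12:56076799-56103505, GRCh38, plus strand), a neuregulin receptor, was nearly absent, with normalized counts of 21.9, 24.2 and 33.3 in siControl and 35.6, 68.8 and 25.4 in siPVT1. One siPVT1 library lay inside the range of siControl. The log2 fold change of 0.70 (95% interval −0.19 to 1.58) did not pass the test (edgeR, adjusted p = 0.156). Without siPVT1 replicate 3 it was 0.96 with an adjusted p of 0.0273 from edgeR, and without siPVT1 replicate 2 it was 0.18.

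ERBB4 (chr2:211375717-212538841, GRCh38, minus strand), the other neuregulin receptor, had 18.1, 4.04 and 30.5 normalized counts in siControl and 2.23, 21.9 and 0 in siPVT1. The groups overlapped widely, and the log2 fold change of −1.17 had a 95% interval from −3.57 to 1.23 (edgeR, adjusted p = 0.368). Within siPVT1, replicate 2 was also the highest and replicate 3 the lowest for CDH1 (13.4, 47.0 and 0) and MUC16 (199, 635 and 17.9), and the part of this spread in ERBB3 and ERBB4 was not tested.

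In the order of receptor levels per length, EGFR lay above ERBB2, ERBB2 above ERBB3 and ERBB3 above ERBB4 in each library. The means were 0.400 TPM for ERBB3 and 0.121 TPM for ERBB4 in siControl and 0.572 and 0.0496 TPM in siPVT1. The SDs of ERBB3 and ERBB4 were 0.0880 and 0.0905 TPM in siControl and 0.307 and 0.0743 TPM in siPVT1 (n = 3 each). EGFR made up 88.2% ± 0.566 of the summed TPM of the 4 receptors in siControl and 91.7% ± 1.36 in siPVT1, and ERBB2 made up 11.5% ± 0.546 and 7.99% ± 1.38 (SD, n = 3 each).

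**Figure D2:**
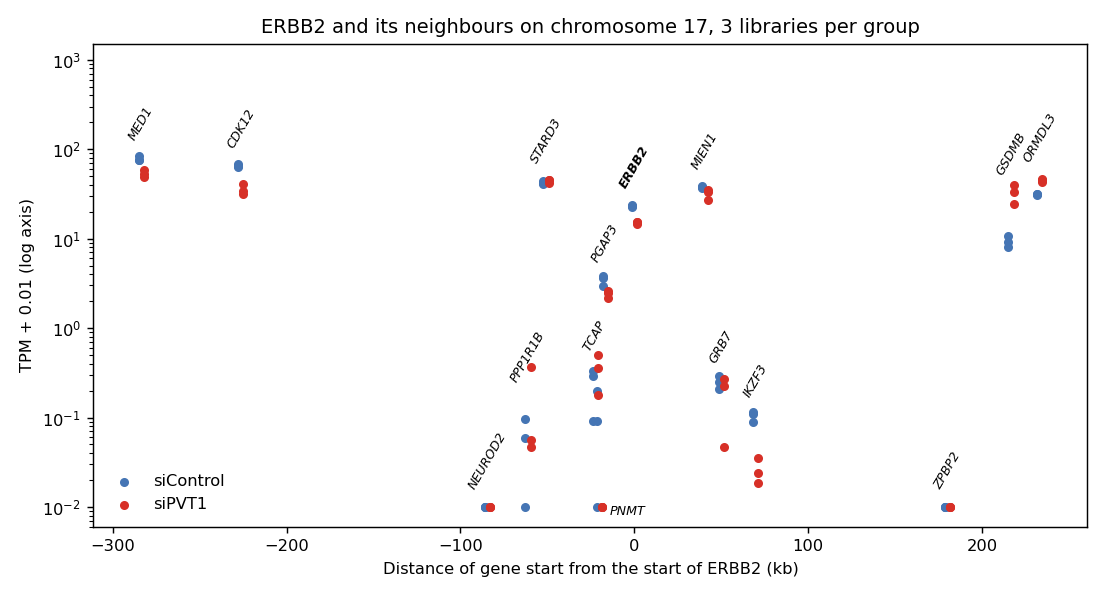
TPM plus 0.01 (log axis) of ERBB2 and 14 neighbours on chromosome 17 against the distance of each gene's start from that of ERBB2 in kb, with 1 point per library, siControl in blue and siPVT1 in red. ERBB2 lies at 22.6 to 24.0 TPM in siControl, below STARD3 and MIEN1, and GRB7 reaches at most 0.281 TPM.

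The neighbours of ERBB2 on chromosome 17 moved in both directions. Of 14 genes between MED1 and ORMDL3, 9 were tested, of which 1 was higher and 1 lower past both thresholds, and 3 higher and 3 lower by the adjusted p alone. Over all genes these shares were 11.8% and 9.64%, and 29.5% and 28.4%. STARD3, a cholesterol transfer protein, and MIEN1, a small membrane-anchored protein, flank ERBB2 at 42.5 ± 1.65 and 37.5 ± 0.935 TPM (SD, n = 3 each) in siControl, above ERBB2 itself. PGAP3, a lipid remodelling enzyme for GPI anchors that lies between STARD3 and ERBB2, was at 3.45 ± 0.436 TPM (SD, n = 3). MED1, a Mediator subunit, and CDK12, a kinase of RNA polymerase II, fell with log2 fold changes of −0.36 and −0.68 (standard errors 0.083 and 0.099, edgeR, adjusted p = 0.00643 and 0.000543). GSDMB, a gasdermin, rose from 173 ± 18.9 to 691 ± 148 normalized counts (SD, n = 3 per group), with 1.99 as the log2 fold change (standard error 0.17, edgeR, adjusted p = 3.14e-05), and its neighbour ORMDL3, a regulator of sphingolipid synthesis, had a log2 fold change of 0.73 (standard error 0.076, edgeR, adjusted p = 8.36e-05). STARD3 had 0.26 (standard error 0.057, edgeR, adjusted p = 0.00475), which was 0.11 and no longer passed with scaling by total count. PGAP3, MIEN1 and GRB7 did not pass the test, at −0.32, −0.05 and −0.30, although PGAP3 passed with scaling by total count (−0.47, edgeR, adjusted p = 0.0236). IKZF3, a lymphoid factor, had 13, 11 and 10 counts in siControl and 1, 3 and 2 in siPVT1. NEUROD2 and ZPBP2 were at 0 in every library, and PPP1R1B, TCAP and PNMT had at most 8 counts and were not tested.

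Among the ligands, EREG, AREG, BTC and EPGN, the last of them a ligand outside the 10 members, lie in a single stretch of chromosome 4 that spans 486 kb from the start of EPGN to the end of BTC. No other protein coding gene of GENCODE v44 lies in it. The 250 bases before the start of each, from RefSeq on GRCh38.p14, are shown because 3 of these 4 neighbours fell and AREG did not. Capitals mark matches to TATAAA on the printed strand only, which reads in the direction of the gene. They also mark matches on either strand to the hypoxia response cores ACGTG or GCGTG, the cAMP response element TGACGTCA and the AP-1 motif TGANTCA. EPGN lies at chr4:74308220-74308469 (plus strand), EREG at chr4:74364895-74365144 (plus), AREG at chr4:74444886-74445135 (plus) and BTC at chr4:74794524-74794773 (minus).
EPGN: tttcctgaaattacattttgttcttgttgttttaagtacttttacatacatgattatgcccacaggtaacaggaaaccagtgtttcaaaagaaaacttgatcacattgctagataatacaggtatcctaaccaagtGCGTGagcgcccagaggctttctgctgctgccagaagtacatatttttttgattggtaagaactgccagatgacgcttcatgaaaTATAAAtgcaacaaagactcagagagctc
EREG: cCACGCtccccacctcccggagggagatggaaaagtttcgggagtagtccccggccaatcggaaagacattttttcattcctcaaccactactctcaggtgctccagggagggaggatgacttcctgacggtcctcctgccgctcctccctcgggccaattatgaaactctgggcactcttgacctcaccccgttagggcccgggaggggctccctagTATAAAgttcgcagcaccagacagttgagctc
AREG: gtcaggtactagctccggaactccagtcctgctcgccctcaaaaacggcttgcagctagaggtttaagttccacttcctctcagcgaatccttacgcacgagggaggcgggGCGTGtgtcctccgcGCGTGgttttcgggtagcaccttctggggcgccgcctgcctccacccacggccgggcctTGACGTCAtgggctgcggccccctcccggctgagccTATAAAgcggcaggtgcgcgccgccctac
BTC: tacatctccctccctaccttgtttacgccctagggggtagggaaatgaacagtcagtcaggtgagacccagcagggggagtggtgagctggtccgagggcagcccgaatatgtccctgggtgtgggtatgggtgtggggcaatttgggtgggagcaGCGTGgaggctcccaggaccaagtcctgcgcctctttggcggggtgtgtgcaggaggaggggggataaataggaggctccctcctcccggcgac

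TATAAA began 29 bases before the start in EPGN, 32 in EREG and 29 in AREG, and these letters were absent from the BTC window. It was in 4 of the 13 family windows that were searched and in 6.8% of all 35114 RefSeq windows of this length. TGACGTCA was in AREG alone among the family windows, 65 bases before the start, and in 1.65% of all windows. A hypoxia response core was in all 4 windows of the stretch and in 8 of the 13 family windows, against 43.2% of all windows. TGANTCA was in none of the 4, in 2 of the 13 (ERBB2 and EGF) and in 6.57% of all windows. HBEGF and TGFA held none of these motifs in the window searched. ERBB3 and NRG1 were not searched.

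EREG (epiregulin, chr4:74365145-74388749, GRCh38, plus strand), a ligand of EGFR and ERBB4, had normalized counts of 68.6, 66.7 and 69.3 in siControl and 16.7, 33.9 and 28.2 in siPVT1. The siControl libraries were nearly level, and all siPVT1 libraries were lower. The mean fell from 68.2 ± 1.34 to 26.3 ± 8.75 (SD, n = 3 per group), with −1.37 as the log2 fold change (standard error 0.253, edgeR quasi-likelihood test, adjusted p = 0.00195). A test against a 2-fold change in edgeR did not call it (adjusted p = 0.196).

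BTC (betacellulin, chr4:74744759-74794523, GRCh38, minus strand), which binds EGFR and ERBB4, had 33.3, 27.3 and 31.4 normalized counts in siControl and 5.57, 12.0 and 7.52 in siPVT1. The groups lay far apart at this low level. The mean fell from 30.7 ± 3.09 to 8.37 ± 3.31 (SD, n = 3 per group), with −1.86 as the log2 fold change (standard error 0.321, edgeR, adjusted p = 0.00133). BTC was the only member that also passed the test against a 2-fold change (edgeR, adjusted p = 0.0381).

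EPGN (epigen, chr4:74308470-74316789, GRCh38, plus strand), a low-affinity ligand of EGFR, had 99.0, 83.9 and 94.2 normalized counts in siControl and 7.80, 8.74 and 4.70 in siPVT1. It had the largest change of the 13 family genes tested, to 0.0766 of its siControl level, with a log2 fold change of −3.70 (standard error 0.252, edgeR, adjusted p = 1.05e-05). AREG (amphiregulin, chr4:74445136-74455005, GRCh38, plus strand), an EGFR ligand of the same stretch, had 69.5, 94.0 and 75.7 normalized counts in siControl and 70.2, 86.3 and 66.7 in siPVT1. Its groups overlapped, with a log2 fold change of −0.10 (95% interval −0.52 to 0.32, edgeR, adjusted p = 0.664). The difference between AREG and its neighbours in response was not tested.

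TGFA (transforming growth factor alpha, chr2:70447284-70554193, GRCh38, minus strand), an EGFR ligand, was the member with the largest rise. Its normalized counts were 1258, 1213 and 1281 in siControl and 4528, 3434 and 1939 in siPVT1. All siPVT1 libraries were above siControl, and they differed from each other by more than 2-fold. The mean rose from 1251 ± 34.5 to 3300 ± 1299 (SD, n = 3 per group), with 1.40 as the log2 fold change (standard error 0.259, edgeR, adjusted p = 0.00196). It was 1.09 without siPVT1 replicate 1 and 1.65 without siPVT1 replicate 3, and the test against a 2-fold change did not call it (edgeR, adjusted p = 0.174).

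HBEGF (heparin-binding EGF-like growth factor, chr5:140332843-140346603, GRCh38, minus strand), which binds EGFR and ERBB4, had normalized counts of 3232, 3206 and 3049 in siControl and 4721, 5142 and 6213 in siPVT1. The siPVT1 libraries were all higher, and their order was the reverse of that for TGFA. The mean rose from 3162 ± 98.8 to 5358 ± 769 (SD, n = 3 per group), with 0.76 as the log2 fold change (standard error 0.0995, edgeR, adjusted p = 0.000302), below the threshold of 1. HBEGF had the smallest p of the members. The genes with the profile nearest to it over the 6 libraries were ESPL1, MT-CO2, MT-CO1, TOP2A and PRUNE2, with root mean square differences of 0.0195 to 0.0394 on the centred log2 scale.

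NRG1 (neuregulin 1), a ligand of ERBB3 and ERBB4, had normalized counts of 2832, 2745 and 2733 in siControl and 2105, 2868 and 3711 in siPVT1. The siControl libraries were tightly grouped and the siPVT1 libraries lay below, among and above them. The log2 fold change was 0.06 (95% interval −0.33 to 0.46, edgeR, adjusted p = 0.772) and turned to −0.085 with scaling by total count and to −0.17 without siPVT1 replicate 3. Its counts are summed over 35 annotated transcripts, so that neuregulin isoforms are not told apart.

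**Figure D3:**
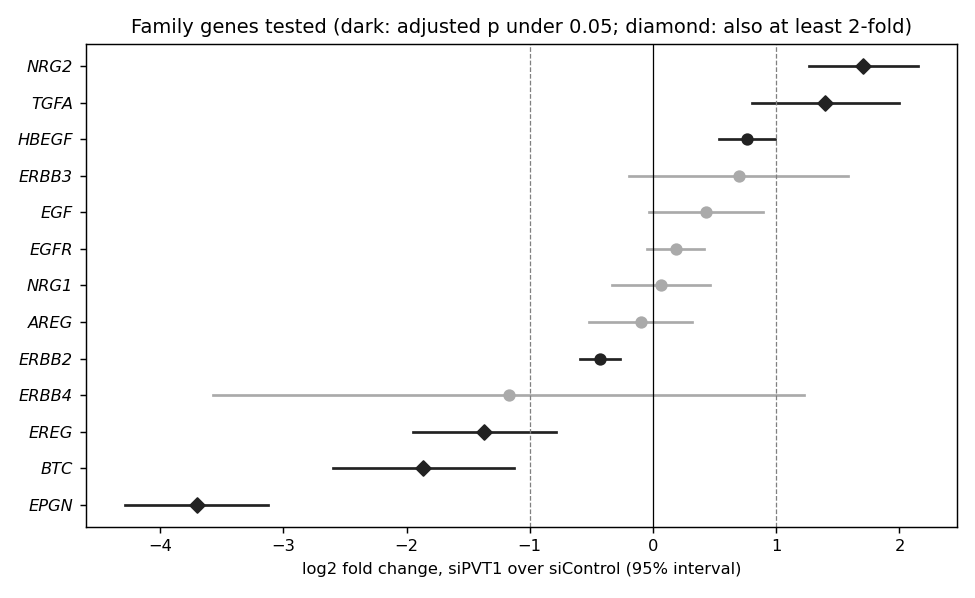
Log2 fold change of siPVT1 over siControl with its 95% interval for the 13 family genes tested, dark where the adjusted p was under 0.05 and as diamonds where the change was also at least 2-fold (dashed lines at −1 and 1). The values run from −3.70 for EPGN to 1.71 for NRG2, and ERBB4 has the widest interval.

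Of the 5 ligands outside the 10 members, EPGN fell as given above and NRG2 rose. NRG2 (neuregulin 2), a ligand of ERBB3 and ERBB4, had 34.3, 37.4 and 36.03 normalized counts in siControl and 143, 115 and 95.8 in siPVT1, with all siPVT1 libraries higher. The log2 fold change was 1.71 (standard error 0.192, edgeR, adjusted p = 0.000132). EGF, the founding ligand of the family, had 64.8, 60.6 and 93.3 normalized counts in siControl and 100.2, 109 and 86.4 in siPVT1, and the groups overlapped. Its log2 fold change of 0.43 did not pass (edgeR, adjusted p = 0.0978), and without siControl replicate 3 it was 0.65 with an adjusted p of 0.0260 from edgeR. The change of EGF did not pass in any other fit without 1 library. It was lowest, at 0.32, without siControl replicate 2 (edgeR, adjusted p = 0.249). NRG3 and NRG4 had at most 3 counts in any library and were not tested.

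Set side by side per length, the ligands of siControl formed a graded series with HBEGF at its top. HBEGF stood at 114 ± 6.24 TPM, TGFA at 25.8 ± 0.506, NRG1 at 19.6 ± 0.628 and AREG at 5.51 ± 1.10 (SD, n = 3 each). The place of NRG1, and its share given below, rest on a canonical transcript of 11983 bases, 1 of its 35. In mean normalized counts of siControl, NRG1 (2770) lay above TGFA (1251). EPGN followed at 2.92 ± 0.138, EREG at 1.25 ± 0.0277, BTC at 0.979 ± 0.0630, EGF at 0.966 ± 0.221 and NRG2 at 0.779 ± 0.0626 TPM (SD, n = 3 each). EGF overlapped both of its neighbours in this order, BTC and NRG2. In siPVT1 the order was HBEGF (168 ± 20.4), TGFA (59.5 ± 24.3), NRG1 (17.8 ± 4.58), AREG (4.46 ± 0.691), NRG2 (2.22 ± 0.481), EGF (1.14 ± 0.154), EREG (0.420 ± 0.1401), BTC (0.233 ± 0.0943) and EPGN (0.196 ± 0.0617 TPM, SD, n = 3 each). Among the 9 ligands tested, NRG2 thus moved from the last to the fifth place and EPGN from the fifth to the last, whereas BTC overlapped both EREG and EPGN in siPVT1. NRG3 and NRG4, which were not tested, lay below these 9 in both groups, with means of at most 0.0430 TPM.

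The 3 ligands that fell carried little of the ligand RNA. EPGN, EREG and BTC made up 1.70%, 0.731% and 0.572% of the summed TPM of all 11 ligands in siControl and 0.0772%, 0.166% and 0.0920% in siPVT1. HBEGF made up 66.3% ± 0.835 in siControl and 66.1% ± 8.10 in siPVT1, TGFA 15.0% ± 0.634 and 23.5% ± 9.55, and NRG1 11.4% ± 0.153 and 7.01% ± 1.81 (SD, n = 3 each). The summed ligand level was 166 to 180.5 TPM in siControl and 253 to 254 TPM in siPVT1, while the summed receptor level was 196 to 211 and 161 to 219 TPM. The ligand sums did not overlap between groups and the receptor sums did. TPM values carry no TMM factor, and on this scale EGFR was level between the groups where its normalized counts differed by 1.14-fold.

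**Figure D4:**
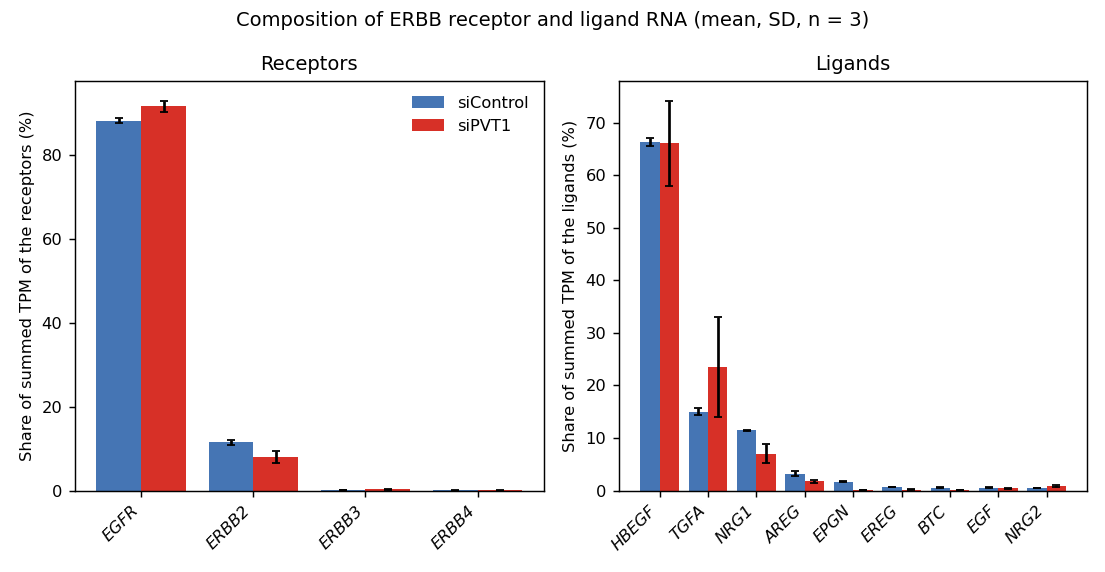
Share of the summed TPM of the 4 receptors (left) and of the ligands (right) taken by each gene, in percent, as the mean of 3 libraries with the SD, siControl in blue and siPVT1 in red (NRG3 and NRG4 are not drawn). EGFR takes 88.2% and 91.7% of receptor RNA, and HBEGF, TGFA and NRG1 take most of the ligand RNA.

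The genes that act with the family were described by 5 lists of 56 genes, of which 55 were tested. Past both thresholds 7 were higher and 1 was lower (6 and 2 with scaling by total count), against 11.8% and 9.64% of all genes, and on the adjusted p alone 27 were higher and 10 lower, against 29.5% and 28.4% of all genes. The median log2 fold change of the 55 genes was 0.24.

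Of 9 shedding and trafficking genes tested, 8 were higher by the adjusted p, against 29.5% of all genes, and 2 were higher past both thresholds, against 11.8% of all genes. The median log2 fold change of the list was 0.75, against 0.00 over all genes. Because the list was chosen with earlier results of these data known, these values are a description and not a test. RHBDF1 and RHBDF2 encode iRhoms, the partners that bring ADAM17 to the cell surface. RHBDF1 rose from 437, 435 and 478 to 1097, 1144 and 989 normalized counts, or by 1.26 on the log2 scale (standard error 0.084, edgeR, adjusted p = 1.00e-05). RHBDF2 rose by 1.05 on the log2 scale (standard error 0.168, edgeR, adjusted p = 0.000921), with 1115 ± 17.1 normalized counts in siControl and 2306 ± 588 in siPVT1 (SD, n = 3 each). RHBDF2 was below 2-fold without siPVT1 replicate 1 (0.86), without siPVT1 replicate 2 (0.995) and with scaling by total count (0.90), and the test against a 2-fold change did not call it (edgeR, adjusted p = 0.848). ADAM17, the main protease of AREG, EREG, HBEGF and TGFA, had 3743 ± 55.6 and 5420 ± 222 normalized counts (SD, n = 3 each) and a log2 fold change of 0.53 (standard error 0.056, edgeR, adjusted p = 9.44e-05). ADAM10, the main protease of BTC and EGF, had a log2 fold change of 0.85 (standard error 0.065, edgeR, adjusted p = 1.94e-05). FRMD8, which binds iRhoms, did not pass (−0.07, edgeR, adjusted p = 0.417).

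**Figure D5:**
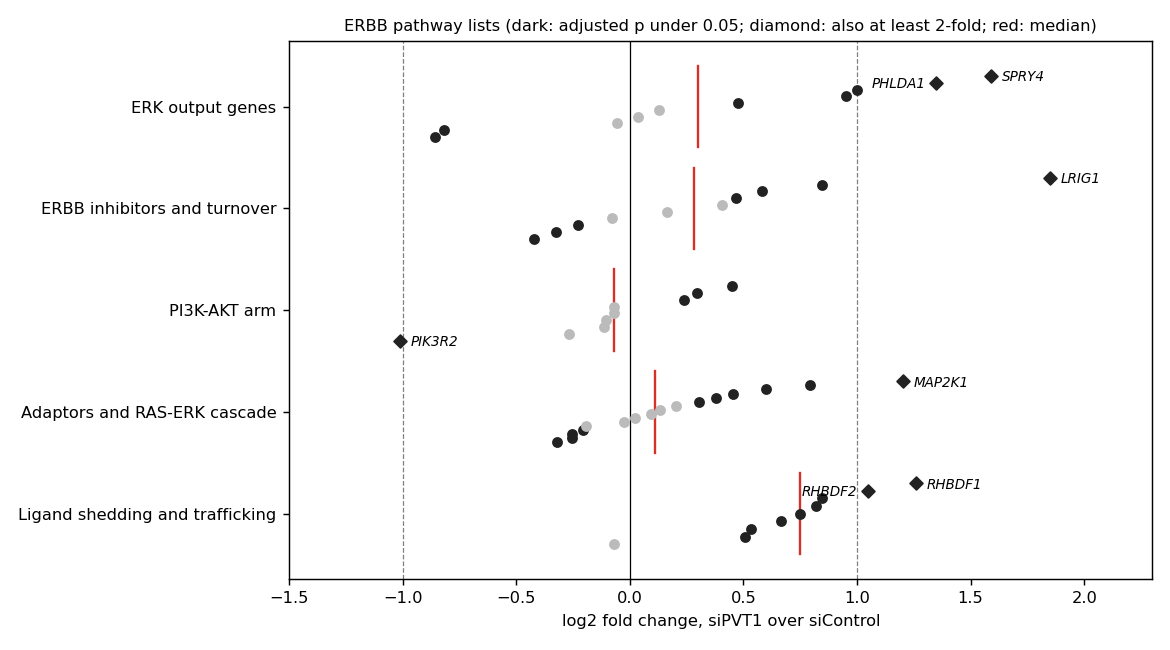
Log2 fold change of siPVT1 over siControl for tested genes of 5 ERBB pathway lists, dark where the adjusted p was under 0.05 and as diamonds with names where the change was also at least 2-fold, with the list median in red. A gene past both thresholds that is not reported here is not drawn, but it counts in the median of its list. The shedding list has a median of 0.75 and the other 4 lists lie between −0.07 and 0.30.

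The signalling cascades behind the receptors changed gene by gene. Among all genes tested, 29.5% were higher and 28.4% lower by the adjusted p, and 11.8% and 9.64% past both thresholds. Of 16 adaptors and members of the RAS-ERK cascade, 6 were higher and 4 lower by the adjusted p, and only MAP2K1, which encodes the ERK kinase MEK1, passed both thresholds, from 2103 ± 86.1 to 4836 ± 200 normalized counts (SD, n = 3 each) with a log2 fold change of 1.20 (standard error 0.062, edgeR, adjusted p = 3.13e-06). Of 10 genes of the PI3K-AKT arm, 4 were higher and 1 lower by the adjusted p. PIK3R2, a regulatory subunit of PI3K, fell from 843 ± 19.5 to 418 ± 44.3 normalized counts (SD, n = 3 per group), with −1.01 as the log2 fold change (standard error 0.091, edgeR, adjusted p = 4.09e-05). The change of PIK3R2 was below 2-fold without siPVT1 replicate 2 (−0.988) or siPVT1 replicate 3 (−0.983), and the test against a 2-fold change did not call it (edgeR, adjusted p = 0.951).

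Among 11 inhibitors and turnover factors of the receptors, 10 were tested, and 4 were higher and 3 lower by the adjusted p. These counts stand against 29.5% and 28.4% of all genes. LRIG1 alone passed both thresholds, as did 11.8% (higher) and 9.64% (lower) of all genes. LRIG1, a membrane protein that promotes the breakdown of ERBB receptors, had 1159, 1167 and 1202 normalized counts in siControl and 4503, 4200 and 4001 in siPVT1. Its log2 fold change of 1.85 (standard error 0.066, edgeR, adjusted p = 7.69e-07) had the smallest p of the 55 pathway genes. ERRFI1, the feedback inhibitor MIG6, did not pass (0.16, edgeR, adjusted p = 0.182).

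Among 10 genes known as transcriptional output of ERK, 5 were higher and 2 lower by the adjusted p, against 29.5% and 28.4% of all genes. Their median log2 fold change was 0.30. SPRY4, a feedback inhibitor of the pathway, rose from 3535 ± 111 to 10634 ± 1281 normalized counts (SD, n = 3 per group), with 1.59 as the log2 fold change (standard error 0.092, edgeR, adjusted p = 5.00e-06), and PHLDA1 had a log2 fold change of 1.35 (standard error 0.103, edgeR, adjusted p = 1.79e-05). ETV4 and EPHA4 fell, with log2 fold changes of −0.86 and −0.82 (standard errors 0.059 and 0.083, edgeR, adjusted p = 1.14e-05 and 7.83e-05). CCND1, DUSP4 and EPHA2 did not pass, at 0.03, −0.06 and 0.13. Every gene of this list that is not named here was higher by the adjusted p.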

How the data were processed

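The authors aligned 75-base single-end reads with STAR to the GENCODE v35 transcriptome of GRCh38.p13 and quantified genes with Salmon. The deposited values are estimated counts, rounded, not normalized and listed by symbol. The submitters' processing notes name STAR 2.7.3a, Salmon 0.14.1 and DESeq2 1.28.1. The strand setting is not given in the sources used here, and Salmon divides reads between similar transcripts by estimation. Groups came from the labels, and all 6 columns matched a sample.

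From these estimated counts, edgeR 4.0.16 in R 4.3.3 was run across all genes with TMM factors and its quasi-likelihood test, with the siRNA as the only term, on the 19008 genes that reached 5 normalized counts in 3 or more libraries. Standard errors were derived from the fold change and its F statistic, and Benjamini-Hochberg adjustment ran over every tested gene. TPM values used canonical transcript lengths of GENCODE v44. The methods were tested on simulated data. Alternatives were DESeq2 1.42.0, other scalings and filters, a block for the replicate number, fits lacking single libraries and other thresholds.

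The members and lists were chosen with earlier results of these data known. Named genes are the family, PVT1, the neighbours of ERBB2, pathway genes past both thresholds, and the 5 genes nearest to the member with the smallest p. ADAM17, ADAM10, FRMD8, ERRFI1, ETV4, EPHA4, CCND1, DUSP4 and EPHA2 were named after their values were seen. Some genes of the lists count in the totals and are not reported here.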

Additional observations from a re-analysis of the deposited data

How the results depend on the processing

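The 3 members past both thresholds remained 3 in number with DESeq2, with its size factors in edgeR, with total count scaling, with either other filter and in each of the 6 fits without 1 library. They were 1 with the test against a 2-fold change and 5 on the adjusted p alone. For all genes, 4081 became 1976 with the test against a 2-fold change and 11007 on the adjusted p alone, and lay between 3507 and 4239 without 1 library. Pathway genes, 8 in number, became 37 on the adjusted p alone and lay between 6 and 9 without 1 library. Scaling by total count shifted the median over all genes from 0.00 to −0.15 (log2) and the share of higher genes among those called from 55.1% to 43.8%. The direction turned for NRG1 (−0.085 with total count scaling, and −0.17 to 0.23 without 1 library), AREG (−0.24 to 0.034 without 1 library, turning without siControl replicate 2), GRB7 (−0.67 to 0.13, turning without siPVT1 replicate 1) and MIEN1 (−0.13 to 0.032, turning without siPVT1 replicate 3), none of which had passed the test. With exon union lengths, the level of ERBB2 in siControl was 17.2 TPM, and it was 22.9 to 23.6 TPM without 1 library. Replicate numbers are shared between groups but did not pair the libraries, with correlations of same-numbered deviations of −0.04, 0.04 and 0.00, and the replicate block gave 3924 genes, 3 members and 8 pathway genes. ERBB4 fell under the filter in 3 of the 6 fits without 1 library. At the low counts of ERBB3, ERBB4 and BTC, the depth limits the precision.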
